A study of Mus musculus with 24 samples.

Results

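The nuclear lamina and the inner nuclear membrane of mouse embryonic fibroblasts (MEFs, primary cells grown out of dissociated embryos) were described through 9 genes: the lamin genes Lmna, Lmnb1 and Lmnb2, the lamin B receptor gene Lbr, the LEM domain genes Emd, Tmpo and Lemd3, and the SUN domain genes Sun1 and Sun2. They were chosen by name from the 45706 genes of the deposited table, and all 9 were among the 17233 genes with enough counts to be tested. RNA sequencing had been run on wild-type (WT) MEFs and on MEFs labelled cGAS KO (KO), in which the cytosolic DNA sensor encoded by Mb21d1 is knocked out, in a series whose title links cGAS to senescence, the lasting growth arrest of aged or stressed cells. Every group is labelled as primary cells of strain C57B1/6, and the series text places all cultures under 20% oxygen. RNA came from bulk populations on days 33, 36 and 42, which the labels give as passages 11, 12 and 14 in both genotypes. How the KO allele was made, and whether 1 or several embryos or lines stand behind a genotype, is not given in the sources used here.

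The labels list 4 samples for each genotype and day. Their counts differed by less than the sampling noise (mean chi-square per degree of freedom 0.832 to 0.843, against 12.8 or more between samples of different groups), so they were summed and counted as 1 library. That left 6 libraries, with n = 3 per genotype, in which the days stand as replicates. The labels do not tell whether the days came from separate cultures, so the p-values below capture the spread among these 6 libraries alone, and that spread may be technical.

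The lamina is a meshwork of intermediate filament proteins that lines the inner nuclear membrane. Lmna gives the A-type lamins A and C by alternative splicing and 3′ end use, whereas Lmnb1 and Lmnb2 give the B-type lamins, which keep a farnesyl tail that holds them at the membrane. LBR binds B-type lamins and heterochromatin and is also a sterol reductase, LEM domain proteins bind the DNA-bridging protein BAF, and SUN proteins reach across the envelope to nesprins and so tie the lamina to the cytoskeleton. In fibroblasts a loss of lamin B1 is a widely used marker of senescence, and the whole meshwork is taken apart and rebuilt at each cell division.

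The forms of Lmna and Tmpo differ at their coding ends, and the results below separate them. The coding sequences shown here were read from GENCODE vM21 (mm10), 5′ to 3′, and all 3 genes shown lie on the minus strand. Lamin A (Lmna-201, 665 codons) and lamin C (Lmna-203, 574 codons) share their opening 568 codons and part at the place shown, with the bases that are no longer shared in capitals. The lamin C bases end in its stop codon (chr3:88483297-88483340). The lamin A stretch crosses an exon junction (chr3:88482588-88483340).
lamin C coding end: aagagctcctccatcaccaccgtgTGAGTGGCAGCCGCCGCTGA
lamin A at the same place: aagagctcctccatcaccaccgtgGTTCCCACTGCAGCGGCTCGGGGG
Lamin A goes on to a farnesylation motif that lamin C lacks and that the B-type lamins carry as well. The last 4 codons and the stop codon are in capitals below, for lamin A (chr3:88482074-88482366, across a junction) and for lamin B2 (chr10:80902859-80903217, across a junction).
lamin A coding end: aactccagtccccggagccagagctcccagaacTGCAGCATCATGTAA
lamin B2 coding end: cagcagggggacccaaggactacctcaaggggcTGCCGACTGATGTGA
The LAP2 alpha form of Tmpo (Tmpo-201, 693 codons) and its LAP2 beta form (Tmpo-202, 452 codons) share 187 codons, after which LAP2 beta goes on towards the domain that spans the inner membrane and LAP2 alpha towards a soluble nuclear protein. The bases after the last shared base are in capitals (LAP2 alpha chr10:91163326-91164066, LAP2 beta chr10:91158810-91164066, both across junctions).
LAP2 alpha: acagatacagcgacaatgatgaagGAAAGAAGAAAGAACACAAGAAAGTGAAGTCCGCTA
LAP2 beta: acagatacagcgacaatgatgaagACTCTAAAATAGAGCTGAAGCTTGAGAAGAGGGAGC

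The libraries held 25650577 to 48716880 counts. Behind the 9 genes stood between 663 counts (Lmnb2, WT day 42) and 34233 counts (Lmna, WT day 33) in a library. Levels are given as CPM, counts scaled to a common library total after TMM scaling. Mb21d1 was at 4.74, 4.08 and 4.82 CPM in the WT libraries of days 33, 36 and 42 and at 0.239, 0 and 0.127 CPM in the KO libraries. The X-inactivation RNA Xist was at 0.0573 to 0.363 CPM in WT against 465 to 641 CPM in KO, and the Y-linked gene Uty was at 29.9 to 32.0 CPM in WT against 2.69 to 2.91 CPM in KO, so genotype and the sex of the embryos cannot be told apart. The fibroblast markers Col1a1 (6980 to 10300 CPM) and Vim (4180 to 5300 CPM) were high in all 6 libraries. None of 8 fibroblast markers passed the test between genotypes, although all 8 had a negative log2 fold change, with Dcn at 23.7 to 170 CPM in WT against 7.60 to 18.4 CPM in KO. DESeq2 called 4 of the 8, and edgeR with day as a factor called Thy1 (763 to 1470 CPM in WT, 432 to 644 CPM in KO, adjusted p = 0.0217); the part of these markers in the values of the lamina genes was not tested.

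Over the 3 days, 4 of the 9 genes were higher in KO and none was lower: Lmnb1, Tmpo, Lbr and Lmnb2. They make up 44.4% of the 9, while 8.72% of all genes tested were called in either direction and 4.07% were called higher and 4.65% lower (edgeR's quasi-likelihood test, Benjamini-Hochberg adjusted p below 0.05 over all genes tested). The median log2 fold change of the 9, KO over WT, was 0.16, against -0.01 over all genes. In 6 of the 9, all 3 KO libraries lay above all 3 WT libraries, which was so for 17.2% of all genes (34.3% had no overlap in either direction), and in 7 the KO library was the higher on each of the 3 days. Since these are bulk samples, fewer cells of a type and less RNA per cell cannot be told apart.

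**Figure D1:**
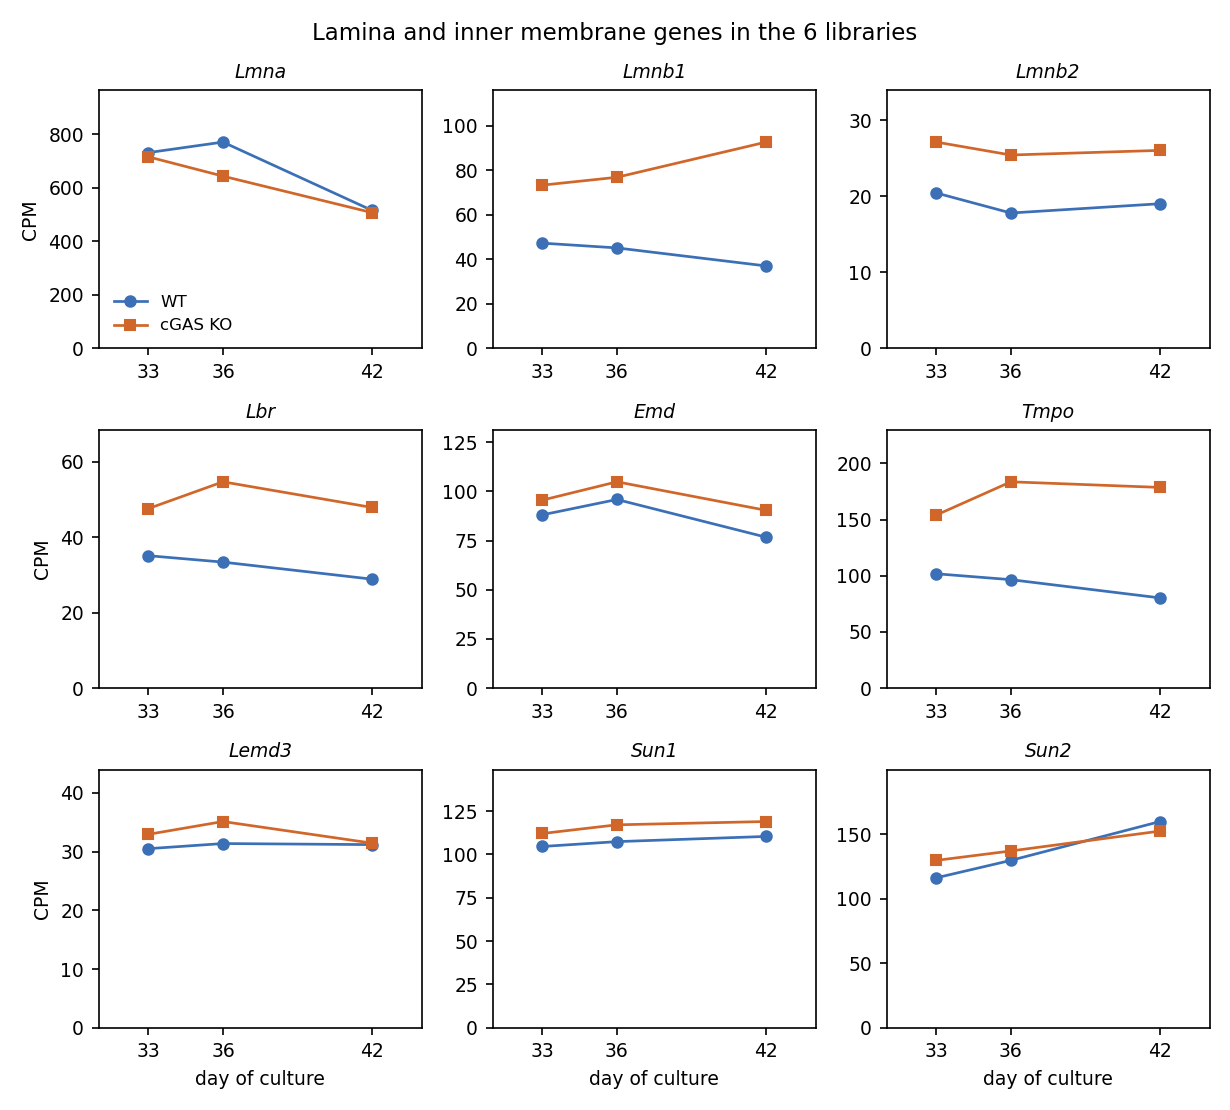
CPM (y axes, each from 0) of the 9 genes against day of culture for the WT (circles) and KO (squares) library of each day; each point is 1 library. Lmnb1, Lmnb2, Lbr and Tmpo show KO libraries clear of the WT libraries, while Lmna and Sun2 show lines that meet on day 42 or cross.

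Among the lamins, both B-type genes were higher in KO and the A-type gene was not called. Lmnb1, which encodes lamin B1, was at 47.2, 45.1 and 37.0 CPM in WT on days 33, 36 and 42 and at 73.3, 76.8 and 92.6 CPM in KO. Every KO library exceeded every WT library, and the 2 day 42 libraries stood furthest apart. The rise was 0.91 ± 0.14 on the log2 scale (SE, n = 3 per genotype, edgeR adjusted p = 0.0159), with means of 43.1 ± 5.40 CPM in WT and 80.9 ± 10.3 CPM in KO (SD).

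Lmnb2, which encodes lamin B2, was at 20.4, 17.8 and 19.0 CPM in WT against 27.1, 25.4 and 26.0 CPM in KO. The groups did not overlap, and the days of a genotype lay close together. Its rise of 0.46 ± 0.09 (log2, SE, n = 3 per genotype) had the largest adjusted p of the 4 called genes (0.0328, edgeR).

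Lmna was at 731, 770 and 515 CPM in WT against 715, 643 and 507 CPM in KO. The groups overlapped almost wholly, and the low values were those of day 42 in both genotypes. The log2 difference was -0.11 ± 0.20 (SE, n = 3 per genotype, edgeR adjusted p = 0.763). The sign of that difference depended on the scaling: with library totals in place of TMM factors it was 0.0013, in a fit whose median over all genes also moved, to 0.107.

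The make-up of the lamin transcripts differed accordingly. Per kilobase of gene length, Lmna took 85.8, 87.2 and 83.9% of the summed lamin level in WT on days 33, 36 and 42, and 79.8, 77.6 and 70.0% in KO. Lmnb1 took 10.9, 10 and 11.9% in WT against 16.1, 18.2 and 25.2% in KO, so its share was higher in every KO library. The ratio of Lmna to Lmnb1 per length was 7.87, 8.68 and 7.07 in WT and 4.96, 4.25 and 2.78 in KO. The lowest WT ratio exceeded the highest KO ratio, and the KO value of day 42 was the lowest of all. On day 42 in WT, Lmnb1 had its highest WT share at its lowest CPM (37.0), beside the lowest WT level of Lmna (515 CPM). These shares and ratios restate the levels of the lamin genes, Lmna included, and carry no test of their own. Their size depends on the deposited gene lengths, which for Lmna is 5851 bases against 3168 for the form Lmna-201.

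The day 42 values of Lmna need a limit. Lmna-203, the full-length lamin C form, held 5404 and 6857 estimated counts in WT on days 33 and 36 and 5067 and 1684 in KO, but it is listed at 0 in both day 42 libraries. Lmna-201, the lamin A form, was at 376, 382 and 321 CPM in WT against 363, 322 and 309 CPM in KO, a milder drop on day 42 than that of the whole gene. Its genotype difference was -0.12 ± 0.11 (log2, SE, n = 3 per genotype, edgeR adjusted p = 0.549). Set against the coding form of Lmnb1, it gave a ratio per length of 8.15, 8.42 and 9.24 in WT and 5.03, 4.23 and 3.43 in KO, so the genotypes stayed apart without the form listed at 0. Whether Lmna-203 was lost or could not be estimated on day 42 was not tested.

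**Figure D2:**
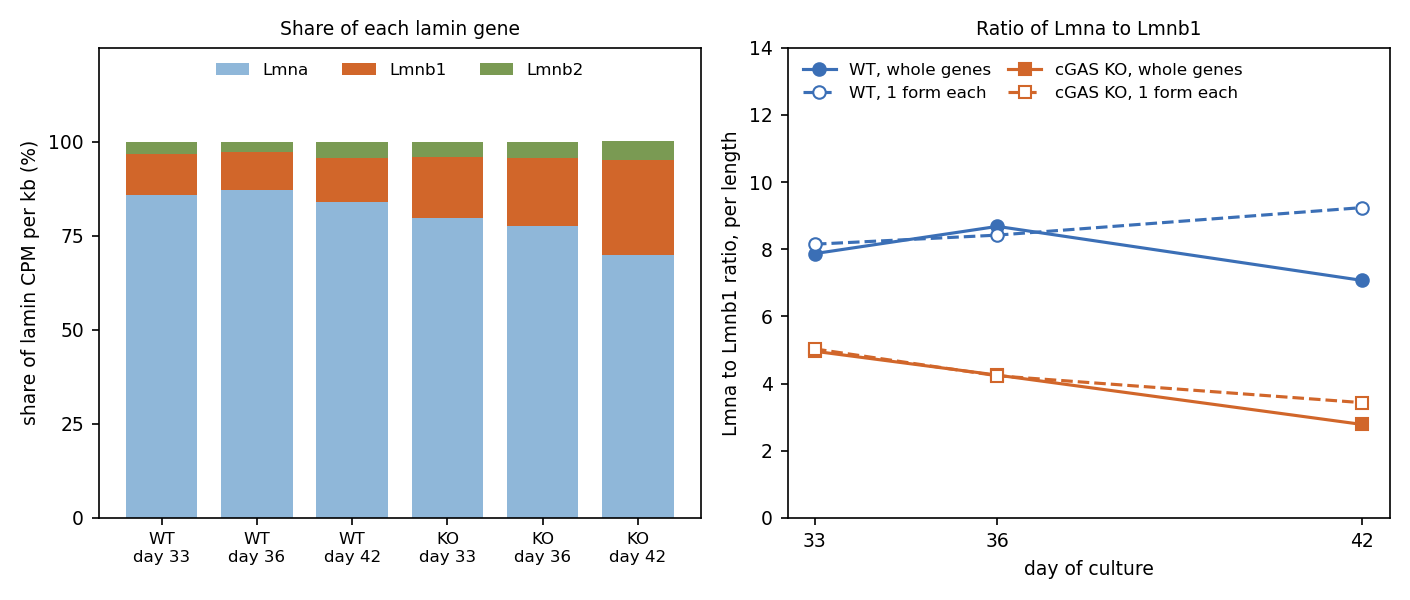
Left, share (%) of Lmna, Lmnb1 and Lmnb2 in the summed lamin CPM per kilobase, 1 bar per library. Right, ratio of Lmna to Lmnb1 per length against day of culture, for whole genes (filled) and for the lamin A form to the coding form of Lmnb1 (open, dashed); on day 42 the whole-gene ratio is 7.07 in WT and 2.78 in KO.

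The forms of Lmna could also be compared by the 3′ end they use. The forms with the lamin C end (Lmna-203 and the shorter Lmna-202) held 49.6, 50.7 and 36.7% of the counts of both ends in WT and 50, 47.9 and 38.2% in KO. This share of counts was near 50% on days 33 and 36 in both genotypes. It was not divided by form length (3168 bases for Lmna-201, 2031 for Lmna-203, 1546 for Lmna-202), so it is not a share of transcript numbers. On day 42 it rests on Lmna-202 alone, since Lmna-203 is listed at 0 there, so the low day 42 shares carry the limit given above. Lmna-202 has 462 codons, begins at a start of its own (88493312) and held more counts than Lmna-203 in every library. On all days the share therefore rests more on Lmna-202 than on full-length lamin C. Whether the counts of Lmna-202 were assigned correctly was not tested. The mean difference in the share between genotypes was -0.3 percentage points (exact permutation test, two-sided, p = 0.9, n = 3 per genotype).

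Lbr, whose protein binds B-type lamins and heterochromatin, was at 35.1, 33.4 and 28.9 CPM in WT against 47.6, 54.7 and 47.9 CPM in KO. The lowest KO library was above the highest WT library. The rise was 0.62 ± 0.11 (log2, SE, n = 3 per genotype, edgeR adjusted p = 0.024), from 32.5 ± 3.22 to 50.04 ± 4.02 CPM (SD). The form Lbr-201, with 626 codons, held 90.2 to 95.8% of the summed counts of the Lbr forms in all 6 libraries; form counts come from the transcript table and need not add up to those of the gene table.

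Of the LEM domain genes, Tmpo was called and Emd and Lemd3 were not. Tmpo, which encodes the LAP2 proteins, was at 102, 96.6 and 80.3 CPM in WT against 154, 184 and 179 CPM in KO. Every WT library was below the lowest KO library. The rise was 0.89 ± 0.12 (log2, SE, n = 3 per genotype) and had the smallest adjusted p of the 9 genes (0.0129, edgeR).

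The LAP2 beta form, which spans the inner membrane, carried most of the Tmpo counts. Tmpo-202 was at 86.0, 83.3 and 62.0 CPM in WT against 137, 158 and 152 CPM in KO, and its libraries did not overlap between genotypes. Tmpo-201, the soluble LAP2 alpha form, was at 13.1, 11.5 and 17.7 CPM in WT against 14.0, 21.4 and 19.6 CPM in KO, and there the groups overlapped. LAP2 beta held 84.1 ± 5.49% of the summed counts of the Tmpo forms in WT and 89.1 ± 1.41% in KO (SD, n = 3). These shares did not overlap, and p = 0.1 in the exact permutation test (two-sided) is the smallest that 3 against 3 libraries allow. Set against the counts of the gene table instead, LAP2 beta held 84.5, 86.2 and 77.2% in WT and 88.9, 86.0 and 84.9% in KO, so the genotypes overlapped.

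**Figure D3:**
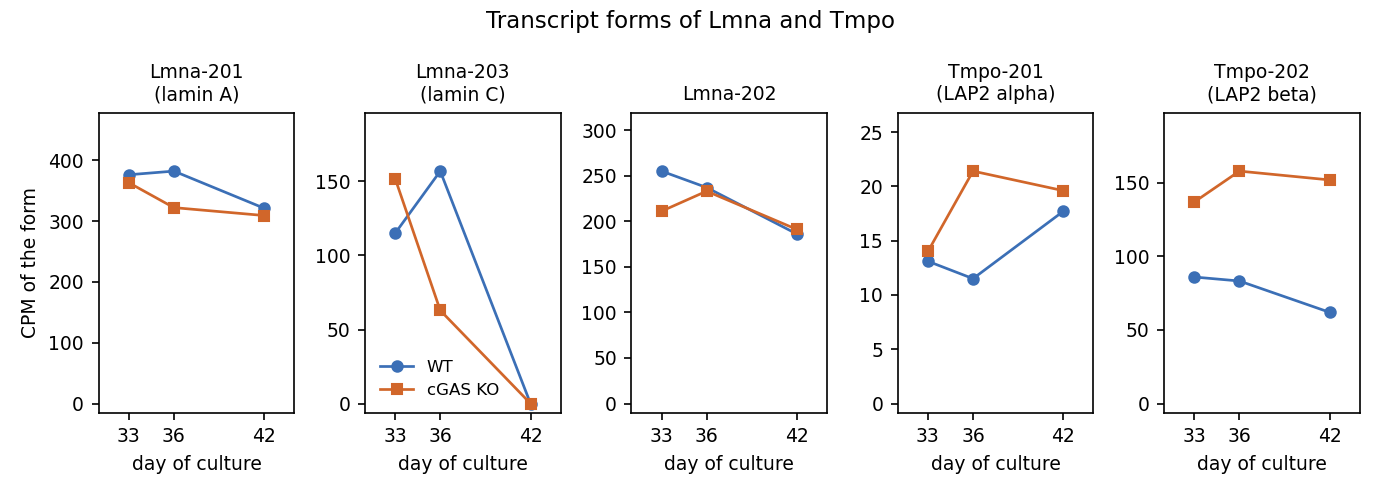
CPM of 3 Lmna forms and 2 Tmpo forms against day of culture, 1 point per library, WT as circles and KO as squares. Tmpo-202 lies at 62.0 to 86.0 CPM in WT and 137 to 158 CPM in KO; Lmna-203 is listed at 0 on day 42 in both genotypes.

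Emd, the X-linked gene of emerin, was at 88.1, 95.9 and 76.7 CPM in WT against 95.6, 105 and 90.4 CPM in KO. The KO library was the higher on each day, but the groups overlapped (log2 difference 0.16 ± 0.11, SE, n = 3 per genotype, edgeR adjusted p = 0.411). Lemd3, whose protein MAN1 binds receptor-regulated SMADs, was at 30.5, 31.37 and 31.2 CPM in WT against 32.9, 35.1 and 31.44 CPM in KO. Its groups were apart by less than 0.1 CPM, and the log2 difference of 0.10 ± 0.08 was not called (edgeR adjusted p = 0.493).

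Neither SUN domain gene was called. Sun1 was at 105, 107 and 110 CPM in WT against 112, 117 and 119 CPM in KO. The groups did not overlap but lay close, with a log2 difference of 0.11 ± 0.07 (SE, n = 3 per genotype, edgeR adjusted p = 0.369). Sun2 was at 116, 130 and 160 CPM in WT against 130, 137 and 152 CPM in KO. Its highest and lowest values were both WT libraries, and the log2 difference was 0.05 ± 0.14 (edgeR adjusted p = 0.859). The Sun1 form with 913 codons held 42.8, 39.9 and 43.5% of the summed counts of the Sun1 forms in WT and 46.8, 49.7 and 50.5% in KO (exact permutation test, two-sided, p = 0.1, the smallest possible). Across the 23 forms of the 9 genes that reached 5% of the summed forms of their gene, shares did not overlap between genotypes in 3, against 11.3% of such forms over all tested genes with several forms. They were this Sun1 form, Tmpo-201 and Tmpo-202, of which the Tmpo forms are complements and so 1 observation, and the count fell to 0 without the columns numbered 4.

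**Figure D4:**
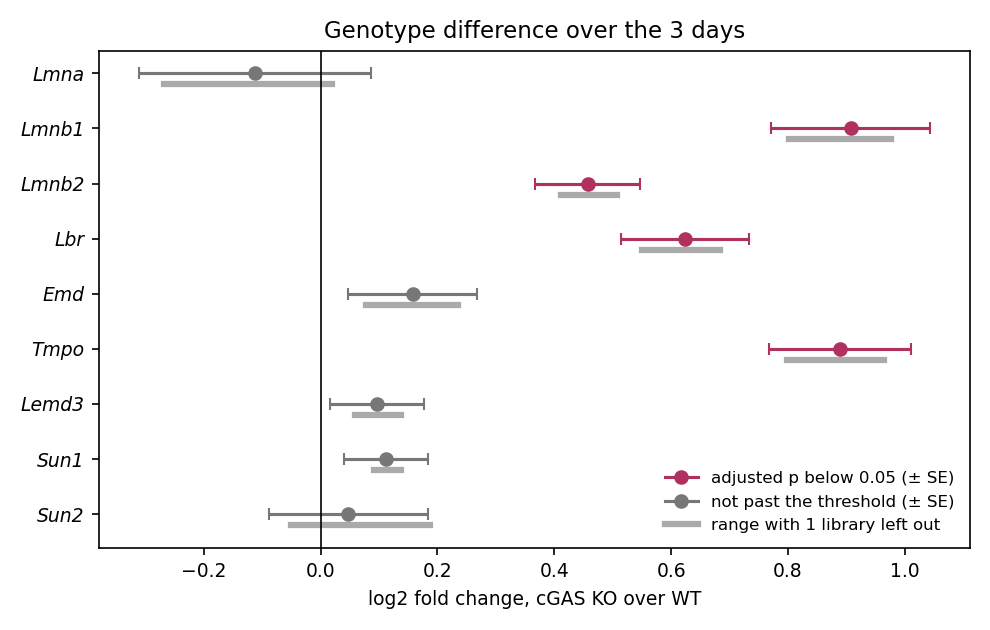
Log2 fold change, KO over WT, of the 9 genes with SE (points and whiskers; 3 libraries per genotype), and the range of the same value when 1 of the 6 libraries was left out (grey bars). The 4 called genes lie between 0.46 and 0.91; the other 5 lie between -0.11 and 0.16.

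The calls rested on few libraries, while the sizes of the 4 differences did not move much. Leaving out 1 library at a time kept Lmnb1 between 0.80 and 0.98, Tmpo between 0.80 and 0.96, Lbr between 0.55 and 0.68 and Lmnb2 between 0.41 and 0.51 (log2). All 4 calls were lost without KO day 36 (edgeR adjusted p from 0.0715 to 0.118) and without KO day 42 (0.0603 to 0.113), settings in which 24 and 68 genes in all were called. Tmpo alone was called without WT day 33 (0.0488), Tmpo and Lmnb1 were called without WT day 36, and Lmnb2 was lost without KO day 33 (0.0598). All 4 calls held without WT day 42. Testing every gene without a filter on low counts also lost Lmnb2 (0.0555).

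Day by day, each comparison rests on 1 library per genotype, so ratios have exact 95% intervals for counting error only and no test. The KO to WT ratio of Lmnb1 was 1.55 (1.46 to 1.64) on day 33, 1.70 (1.60 to 1.81) on day 36 and 2.50 (2.35 to 2.67) on day 42. That of Tmpo was 1.51 (1.46 to 1.58), 1.90 (1.82 to 1.98) and 2.23 (2.13 to 2.33). Both were largest on day 42. Lbr had ratios of 1.36, 1.64 and 1.66, and Lmnb2 of 1.33, 1.43 and 1.37. A 2-fold difference was reached by 0 of the 9 genes on days 33 and 36, where 6.57 and 7.63% of all genes with at least 5 CPM reached it, and by 2 on day 42 (Lmnb1 and Tmpo), where 9.52% of such genes were 2-fold apart and 3.03% were higher in KO by that much.

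Within a genotype, none of the 9 genes differed 2-fold between day 42 and day 33, where 5.08% of such genes did in WT and 4.06% in KO. Lmnb1 on day 42 stood at 0.783 times its day 33 level in WT (95% counting interval 0.731 to 0.839) and at 1.26 times in KO (1.2 to 1.33). Tmpo stood at 0.789 times in WT (0.753 to 0.827) and at 1.16 times in KO (1.12 to 1.2). For both genes the WT library was lower and the KO library higher on the later day. A test of whether the slope over days differed between genotypes, chosen after seeing the data and with 2 residual degrees of freedom, gave an edgeR adjusted p of 0.611 for Lmnb1 (unadjusted 0.0111) and 0.640 for Tmpo (unadjusted 0.0596). It called 0 of 17233 genes, with 1334 at an unadjusted p below 0.05.

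Of 3 other members, Lmna had nearly the same ratio of day 42 to day 33 in both genotypes, while Sun2 and Lbr had ratios whose counting intervals did not overlap. Lmna was at 0.705 times its day 33 level in WT and at 0.709 times in KO, within the limit on Lmna-203 given above. Sun2 was at 1.38 times in WT (1.32 to 1.43) and at 1.18 times in KO (1.13 to 1.22). Lbr was at 0.823 times in WT (0.760 to 0.890) and at 1.01 times in KO (0.941 to 1.08). In the slope test, neither Sun2 (unadjusted p = 0.242, edgeR adjusted p = 0.751) nor Lbr (unadjusted p = 0.328, edgeR adjusted p = 0.799) differed between genotypes.

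On a per-length scale (mean CPM per kilobase over the 3 days), Lmna was the most abundant of the 9 genes in WT at 115 ± 23.5 (SD, n = 3), followed by Emd at 39.9 ± 4.42 and Sun2 at 27.9 ± 4.61. Tmpo (14.9), Sun1 (14.7) and Lmnb1 (14.5) came next and overlapped with each other. Lbr at 7.60, Lemd3 at 6.43 and Lmnb2 at 4.44 closed the order without overlap. In KO, Lmna at 106 ± 18.1 and Emd at 44.5 ± 3.37 again led, but Tmpo (27.6) and Lmnb1 (27.2) overlapped with Sun2 (28.9), while Sun1 stayed at 15.9. Lmnb2 was the lowest of the 9 in both genotypes, at 6.09 in KO. The order and its overlaps depend on the deposited gene lengths, which exceed the lengths of single forms to differing degrees. For Tmpo the gene length is 6243 bases, against 3542 for the LAP2 beta form. For Sun1 it is 7318, against 4157 for the form with 913 codons. For Lmnb1 it is 2973, against 2854 for its coding form. Whether the overlaps of Tmpo, Sun1, Lmnb1 and Sun2 hold at form lengths was not tested.

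Across the 6 libraries the called genes followed one another closely, but they were picked by their rise in these same libraries, which by itself raises r. Over the log2 CPM of these libraries, which share genotype as a common source of variation, Pearson's r was 0.98 between Lmnb1 and Tmpo, 0.99 between Lbr and Tmpo, and 0.94 between Lmnb1 and Lbr. Sun1, which was not called, had r = 0.81 with Lmnb1 and 0.81 with Tmpo. Lmna had r = -0.18 with Lmnb1 and -0.91 with Sun2. Of 10173 genes averaging 5 CPM or more, those with a pattern most like that of Lmnb1 included Dctpp1, Cep295, Atad2 and Fancb (r from 0.995 to 0.998). The 5 most like Lmna were Aldoa, Adam9, Zfp36, Fbrs and Usp16, with r up to 0.999. Zfp36, which encodes an mRNA-destabilising protein of the immediate early class, was at 113, 137 and 23.1 CPM in WT against 103, 66.5 and 17.0 CPM in KO, with the same low values on day 42. These are descriptions over n = 6 libraries without a test.

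Promoters of 8 of the 9 genes (12 annotated starts) were taken from RefSeq (GRCm38.p6), with Lmnb1 not analysed here, and the 250 bases before each start were searched on both strands for CCAAT, for the CHR element TTTGAA and for the E2F letters TTTCCCGC, TTTGGCGC, TTTCGCGC and TTTGCCGC, motifs found at many genes expressed in dividing cells. In the promoters shown, no match overlaps a match of another motif. CCAAT lay before 8 of the 12 starts, against 33.8% of 32851 promoters, the CHR letters before 3 (16% of promoters) and an E2F sequence before 1 (1.86%). A match is a description of the sequence and not a site. The promoters below show called and uncalled genes side by side, 5′ to 3′ along the gene with matches on either strand in capitals: Lbr (chr1:181842402-181842651, minus strand), both Tmpo starts (chr10:91171620-91171869 and chr10:91170551-91170800, minus strand), the upstream Lmnb2 start (chr10:80918246-80918495, minus strand) and Sun2 (chr15:79742537-79742786, minus strand).
Lbr: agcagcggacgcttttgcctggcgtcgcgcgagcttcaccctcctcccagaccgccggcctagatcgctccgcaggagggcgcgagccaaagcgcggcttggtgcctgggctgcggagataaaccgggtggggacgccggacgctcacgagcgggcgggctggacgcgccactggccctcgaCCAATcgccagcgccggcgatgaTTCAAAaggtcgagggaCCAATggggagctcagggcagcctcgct
Tmpo, upstream start: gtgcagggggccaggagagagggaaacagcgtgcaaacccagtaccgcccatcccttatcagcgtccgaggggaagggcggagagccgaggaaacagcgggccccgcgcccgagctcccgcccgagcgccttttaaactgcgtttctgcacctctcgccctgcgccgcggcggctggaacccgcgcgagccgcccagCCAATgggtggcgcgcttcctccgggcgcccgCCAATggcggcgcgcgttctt
Tmpo, downstream start: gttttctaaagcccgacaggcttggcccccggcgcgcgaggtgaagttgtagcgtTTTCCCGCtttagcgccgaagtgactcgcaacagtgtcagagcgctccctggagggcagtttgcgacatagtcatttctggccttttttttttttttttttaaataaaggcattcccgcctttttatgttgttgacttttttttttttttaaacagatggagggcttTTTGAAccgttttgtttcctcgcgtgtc
Lmnb2, upstream start: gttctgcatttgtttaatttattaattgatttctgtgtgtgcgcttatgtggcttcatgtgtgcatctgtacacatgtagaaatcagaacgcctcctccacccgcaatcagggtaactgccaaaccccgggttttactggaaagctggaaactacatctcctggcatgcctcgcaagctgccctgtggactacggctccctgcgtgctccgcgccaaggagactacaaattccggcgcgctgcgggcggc
Sun2: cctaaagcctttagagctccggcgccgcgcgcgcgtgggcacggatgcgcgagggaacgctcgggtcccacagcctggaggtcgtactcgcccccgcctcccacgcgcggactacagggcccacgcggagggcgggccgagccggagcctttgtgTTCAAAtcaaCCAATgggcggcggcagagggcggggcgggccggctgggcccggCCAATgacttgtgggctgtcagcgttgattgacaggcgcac
Lbr carries 2 CCAAT matches and 1 CHR match, and so does Sun2, which was not called. Lmnb2, which was called, has no match before either of its starts. The downstream Tmpo start, at 91170550, has 1 CHR match and 1 E2F match. Tmpo-201 and Tmpo-202, the Tmpo forms that reached 5% of the summed forms, begin at 91171578 and 91171582. These lie beside the upstream start at 91171619, which has 2 CCAAT matches and no CHR or E2F match.

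The wider nuclear envelope was read through 9 further lists with 99 genes tested, chosen by function. In these, 14 genes rose, 2 fell and 83 were not called. That is 16.2% called in either direction, against 8.72% of all genes tested, and 14.1% higher, against 4.07%. Their median log2 fold change was 0.17. With day as a factor in the fit, 8 rose and 2 fell. The lists are not separate from cell division: of the 14 genes that rose, Ccnb1, Cdk1 and Ccnb2 also belong to the cell division list below.

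The nuclear pore list is the longest of these. Of its 30 tested genes, 7 rose and none fell, 27 had a positive value, and the median was 0.28. Nup43, of the Y-shaped scaffold of the pore, was at 14.4 to 15.9 CPM in WT against 20.7 to 26.2 CPM in KO, a rise of 0.64 ± 0.12 (edgeR adjusted p = 0.0267). Ndc1, a membrane anchor of the pore, rose by 0.46 ± 0.09 (edgeR adjusted p = 0.0284), and the scaffold genes Nup188 and Nup85 by 0.45 ± 0.09 and 0.53 ± 0.10. The other 3 called, Nup37, Nup107 and Nup205, were named after their values were seen. With day as a factor, 2 of the 30 were called.

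In the list of nesprins and outer membrane partners, which holds torsin-related genes beside the nesprin genes, 2 of 9 rose, both of them nesprin genes. Syne2, which encodes the giant nesprin-2, was at 19.4, 27.1 and 29.6 CPM in WT against 42.0, 73.8 and 86.8 CPM in KO. Its groups did not overlap, and the rise of 1.41 ± 0.29 (edgeR adjusted p = 0.0376) exceeded that of any of the 9 genes. Syne4 rose by 1.87 ± 0.35 (edgeR adjusted p = 0.0292), from a low level of 0.229 to 0.430 CPM in WT to 0.778 to 1.42 CPM in KO. The nesprin genes Syne1 (-0.47 ± 0.16, edgeR adjusted p = 0.119) and Syne3 (0.54 ± 0.32, edgeR adjusted p = 0.33) were not called. Both were named after their values were seen.

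Of 9 other inner membrane genes, none was called by edgeR's quasi-likelihood test, 4 had an unadjusted p below 0.05 and 2 were called by DESeq2. Nrm, the gene of nurim, was at 7.52 to 8.09 CPM in WT against 9.96 to 13.2 CPM in KO (log2 difference 0.54 ± 0.14, edgeR adjusted p = 0.0571). Among the chromatin partners, 2 of 10 rose: Banf1, which encodes BAF, by 0.38 ± 0.08 (edgeR adjusted p = 0.0351), and Vrk1, a kinase of BAF, by 0.67 ± 0.13 (edgeR adjusted p = 0.0343). With day as a factor neither was called (edgeR adjusted p = 0.0691 for Banf1 and 0.0556 for Vrk1). Of 11 lamin kinases and phosphatases, the mitotic cyclin and kinase genes Ccnb1, Cdk1 and Ccnb2 rose, by 1.14 ± 0.14, 0.60 ± 0.10 and 0.56 ± 0.11.

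Of the 99 envelope genes tested, 2 were called lower, Icmt and Chmp3, while 4.65% of all genes tested were called lower. Icmt, which methylates the farnesylated tail of lamins and other prenylated proteins, was at 159, 162 and 130 CPM in WT against 106, 106 and 96.8 CPM in KO, a log2 change of -0.54 ± 0.11 (edgeR adjusted p = 0.0338), and it was the only one called of 7 lamin maturation genes. Chmp3, an ESCRT-III subunit that takes part in sealing the envelope, was at 117 to 129 CPM in WT against 85.4 to 91.1 CPM in KO (-0.46 ± 0.08, edgeR adjusted p = 0.0231), and it was the only one called of 11 sealing genes. None of 7 sterol reduction genes beside Lbr was called by edgeR (0 at an unadjusted p below 0.05, 0 by DESeq2), and none of 5 genes of phosphatidate and envelope growth (1 unadjusted, 1 by DESeq2).

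Most genes of cell division were called higher in KO. Of 42 tested, which include Ccnb1, Cdk1 and Ccnb2 of the envelope lists, 36 rose and none fell, with a median of 0.71. Their summed level was 2000 to 2080 CPM in WT and 2950 to 3390 CPM in KO. With 1 library left out, 0 to 35 of them were called, and 0 to 10 of the nuclear pore genes. Ccna2 (cyclin A2) was at 55.0 to 58.7 CPM in WT against 97.4 to 121 CPM in KO, and the replication-linked gene Uhrf1 rose by 1.22 ± 0.11 (edgeR adjusted p = 0.00766). Of 7 cell cycle inhibitors, Cdkn2a, Cdkn2b and Cdkn1a fell and Cdkn1b rose. The part of cell division in the values of the lamina genes was not tested. No marker of another cell type was called by edgeR with genotype as the only term. The 8 macrophage markers summed to 10.3 to 116 CPM in WT and 6.90 to 54.5 CPM in KO, with Adgre1, Lyz2 and Mrc1 at 0 in KO day 42, and of 10 epithelial, endothelial, muscle and adipocyte markers tested DESeq2 called 1 endothelial and 1 muscle marker. With day as a factor edgeR called Acta1, a muscle actin gene (502 ± 151 CPM in WT, 285 ± 72.8 CPM in KO, SD, adjusted p = 0.0291), while Myod1 was at 0 in all 6 libraries.

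**Figure D5:**
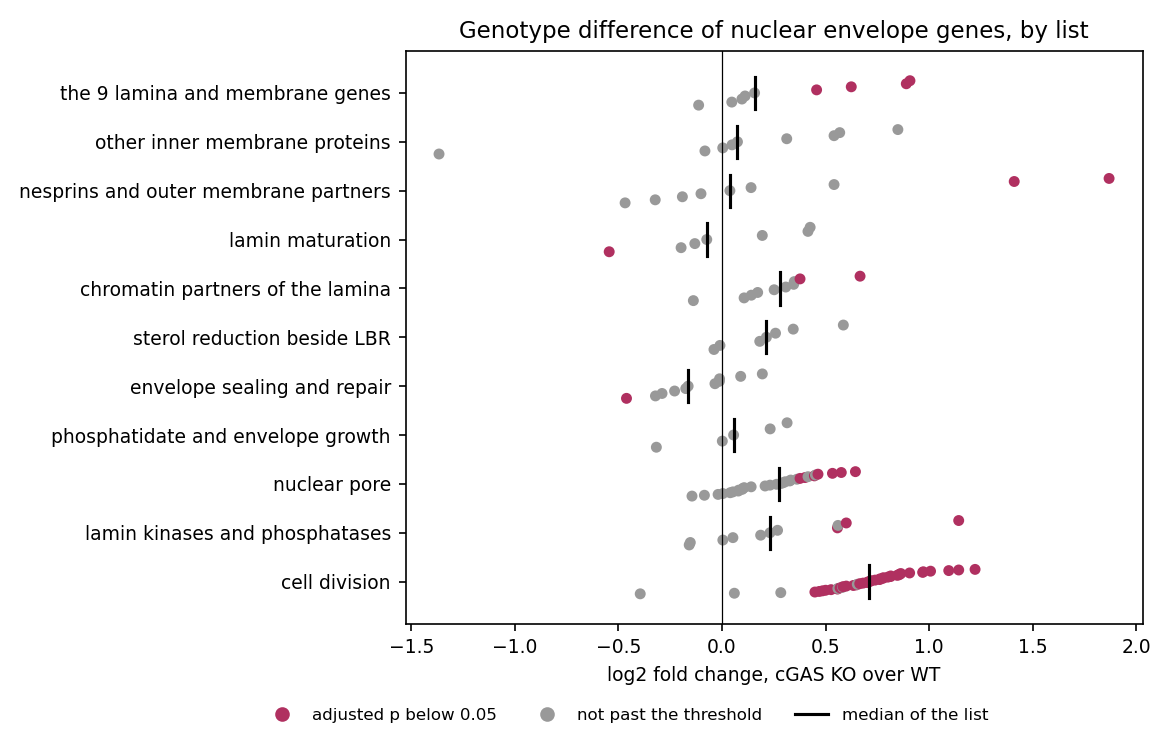
Log2 fold change, KO over WT (x axis), of every tested gene in 11 lists (1 point per gene; dark red, adjusted p below 0.05; black bar, median of the list). The medians are 0.16 for the 9 lamina and membrane genes, 0.28 for nuclear pore genes and 0.71 for cell division genes.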

How the data were processed

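RNA from bulk MEFs had been turned into stranded libraries with a poly(A) selection kit, per the labels' protocols. The values the authors deposited for genes and for transcript forms are estimated counts, unscaled and with fractions, per the file headers. The deposited RPKM values, per the file headers, served only to check the scale of each column. The deposited lengths in bases gave the per-length levels. A further 24 per-sample columns of the transcript table stayed unused. In the submitters' processing notes mm10, Bowtie2 2.2.1 and limma 3.18.13 are named without roles; the counting program, annotation and strand setting were not given in the sources used here.

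Per genotype and day, the 4 columns agreed within sampling noise (3.38 to 3.63% of genes had p below 0.05), were summed to 1 library and were rounded to whole numbers. The genotype test was edgeR 4.0.16 in R 4.3.3 (TMM, filterByExpr, robust quasi-likelihood test, Benjamini-Hochberg adjustment over 17233 genes, threshold 0.05). On counts simulated for 3 against 3 libraries (17019 genes) it called 52.2% of 90 genes changed 2-fold, 88% of 108 changed 4-fold and 5 of 16821 unchanged genes. The simulation had no day effect and changed far fewer genes than the 1503 called in the data. Its percentages are therefore not the sensitivity of the test in these data. The SE was derived from the log2 fold change and the F statistic, as their absolute ratio after taking the root of F. Log2 CPM of single libraries used a prior count of 2. Transcript names, coding sequences and gene types came from GENCODE vM21, whose gene starts lie 2 bases above those in the deposited table, and promoters from RefSeq. Alternatives were limma-voom (limma 3.58.1), DESeq2 1.42.0, other scalings, no filter, day as a factor, 24 separate columns, and leaving out libraries, days or columns.

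The 9 genes and all lists were chosen with earlier results of these data known. Named genes are the 9, Mb21d1, the 5 genes most similar to Lmnb1 and to Lmna, and, in each other list, up to 4 called genes by adjusted p or up to 2 where none was called; markers and sex-linked genes are added as checks. Chmp1b had no matching row. A gene similar to Lmnb1 is not reported here. Counting intervals, at depths of 25650577 to 48716880 counts per library, cover counting error only.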

Additional observations from a re-analysis of the deposited data

Results flagged for a closer look

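The change of Lmnb1 from day 33 to day 42 had opposite signs in the genotypes. The log2 difference was -0.35 in WT and 0.34 in KO, which are 0.69 apart. Each value compares 1 library with 1 library, so replicates give no test of it. Tmpo had the same pattern, with -0.34 in WT and 0.21 in KO, which are 0.556 apart. The slope over the 3 days differed between genotypes by 0.08 ± 0.02 log2 units per day for Lmnb1 and by 0.06 ± 0.02 for Tmpo (SE, edgeR adjusted p = 0.611 and 0.640), so neither difference passed the test.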

How the results depend on the processing

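With library totals, DESeq2 size factors, DESeq2, limma-voom or day as a factor, 4 of the 9 genes were called, all higher in KO. Of all genes, 1503 were called. Leaving out WT day 33 gave 254, WT day 36 gave 738, KO day 36 gave 24 and KO day 42 gave 68 (24 to 1811 over the 6 fits). Leaving out both libraries of day 33, 36 or 42 gave 429, 3 and 539, and DESeq2 gave 2855. Library totals moved the split of calls from 701 higher and 802 lower to 1022 and 635. Of the 9 genes, 0 to 4 were called with 1 library left out, and 1, 0 and 2 without both libraries of day 33, 36 or 42. In the envelope lists, 16 genes were called, 0 to 19 with 1 library left out, 2, 0 and 2 with a day left out, 10 with day as a factor and 26 with DESeq2. Taking the 24 columns as separate libraries called 8173 genes, 66 list genes and 7 of the 9 (Emd, Sun1 and Lemd3 as well), and with a replicate block 7846, 63 and 7. The 4 columns of a group differed by no more than sampling noise, so those p-values are too small for a difference between cultures. Whether these columns share a library is not given in the labels. With 1 library left out, Lmna ran from -0.269 to 0.0188 (without KO day 42), and Sun2 from -0.0515 (without WT day 33) to 0.187, being -0.0171 without KO day 42. Lmna also turned with library totals (0.0013) and Sun2 without both libraries of day 33 (-0.0026). With library totals, 1 gene was 2-fold apart on day 36. Forms with shares apart numbered 3, 3 to 10 with 1 library left out and 0 to 4 with 1 numbered column left out. The causes of these changes were not tested.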
